A study of Mus musculus with 10 samples.

Results

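A set of 9 genes of chloride, bicarbonate and water secretion were followed through RNA-seq of mouse cholangiocytes and hepatocytes. They are Sctr, Cftr, Ano1, Slc4a2, Slc12a2, Car2, Kcnn4, Atp1b1 and Aqp1, 9 of the 29972 genes to which the deposited transcripts were joined. They were chosen by their known role and by name, but with earlier results of these data known. Counts of them beside the share of all genes are therefore only a description. All 9 were among the 14765 genes that reached 1 TPM or more in 3 or more libraries, the set that was tested. TPM is an abundance of transcripts per unit of length, scaled to a fixed total.

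The libraries came from 3 groups of sorted liver cells. Hepatocyte-derived peripheral cholangiocytes (HpC, n = 4) and hepatocytes (H, n = 3) were from mice labelled Alb-Cre+/-;Rbpjf/f;Hnf6f/f, and peripheral cholangiocytes (pC, n = 3) were from Rbpjf/f;Hnf6f/f mice without Cre. Every mouse thus carried the floxed alleles of Rbpj and Hnf6 (the gene Onecut1) on a background labelled Mixed (C57BL/6, FVB, CD1). The albumin promoter drives the Cre in liver epithelium, so the cellular origin of HpC and the deletion cannot be told apart in a comparison of HpC with pC. Ages ran from P124 to P151 in HpC, from P119 to P151 in pC and from P134 to P139 in H, as the labels give them. The nonparenchymal fraction was the source of HpC and pC, and H were sorted after perfusion alone, so the comparisons with H also compare preparations. H2, H3 and HpC4 share an age and a genotype label, and the labels do not give separate animals for them, so p-values may measure only a spread between samples that is technical.

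Cholangiocytes, the epithelial cells of bile ducts, alkalinise and dilute bile. Secretin binds its receptor on the basolateral side and raises cyclic AMP, which opens the apical chloride channel CFTR; extracellular nucleotides raise calcium, which opens the apical channel anoctamin-1. The chloride that leaves is exchanged for bicarbonate by the anion exchanger encoded by Slc4a2, carbonic anhydrase supplies the bicarbonate, and water follows through aquaporins. On the basolateral side a cotransporter loads chloride, the sodium pump keeps up the gradients and potassium channels hold the membrane potential. In rodents the response to secretin belongs to the cholangiocytes of larger ducts.

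Each deposited table gave TPM only, so the number of reads and the counting error are unknown. TPM was rescaled between libraries (scaled TPM), with factors from 0.499 to 1.61, and from 10232 to 14489 genes reached 1 TPM in a library. The 8 cholangiocyte markers (among them Sox9, Krt19, Krt7, Spp1, Epcam and Cldn4) summed to 1898 to 2955 scaled TPM in HpC, 5324 to 5520 in pC and 31.2 to 43.7 in H, and the 8 hepatocyte markers summed to 2980 to 5720, 1150 to 2623 and 74958 to 86628. Spp1 carried the gap between HpC and pC, at 593 to 1289 against 4056 to 4410; without it the cholangiocyte sums overlapped, at 869 to 1875 against 1089 to 1316, and Krt19, Krt7 and Cldn4 had their higher means in HpC. Without Alb the hepatocyte sums of HpC and pC also overlapped, at 419 to 1275 against 368 to 664. The labelled cell types thus held their defining markers. Between HpC and pC, 2 of the 8 cholangiocyte markers were lower in HpC, Spp1 among them, and none of the hepatocyte markers passed the test. Of the floxed genes, Onecut1 had a scaled TPM of 32.0 ± 12.2 for HpC, 72.5 ± 9.44 for pC and 81.0 ± 32.2 for H, and Rbpj of 4.79 ± 0.99, 6.06 ± 0.68 and 1.35 ± 0.21 (SD, n = 4, 3 and 3). A value over the whole gene holds reads from outside a deleted stretch, and neither difference between HpC and pC passed the test by limma (−1.22 ± 0.34 and −0.30 ± 0.17, Benjamini-Hochberg adjusted p = 0.0805 and 0.398), although the ranges of Onecut1 did not overlap. HpC1, HpC2 and pC3 stood apart: 10 pancreatic acinar genes summed to 246269 scaled TPM in HpC1 against 11.9 to 168 in the other HpC libraries, and to 1067 in pC3 against 7.69 and 12.0 in the other pC libraries, and 8 genes of squamous epithelium summed to 38733 in HpC2 against 1.72 to 3.43. In bulk samples fewer cells of a type and less RNA per cell cannot be told apart.

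Promoter sequences are shown for 3 genes that differed between HpC and pC, Kcnn4 and Atp1b1 (lower in HpC) and Aqp1 (higher in HpC), because Rbpj and Onecut1 encode DNA-binding factors. Each runs 5′ to 3′ on the gene's strand from 250 bases before the RefSeq start site to 50 bases after it (GRCm38.p6), and capitals mark matches, on either strand, to the RBPJ core TGGGAA or the GC box GGGCGG (on the opposite strand TTCCCA and CCGCCC).
Kcnn4, chr7:24370013-24370312, plus strand: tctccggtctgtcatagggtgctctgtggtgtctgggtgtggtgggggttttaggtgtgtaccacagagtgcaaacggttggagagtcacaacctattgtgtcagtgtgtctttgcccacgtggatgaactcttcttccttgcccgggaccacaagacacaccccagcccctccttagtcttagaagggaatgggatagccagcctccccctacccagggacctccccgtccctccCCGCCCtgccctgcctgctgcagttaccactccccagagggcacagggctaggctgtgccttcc
Atp1b1, chr1:164458306-164458605, minus strand: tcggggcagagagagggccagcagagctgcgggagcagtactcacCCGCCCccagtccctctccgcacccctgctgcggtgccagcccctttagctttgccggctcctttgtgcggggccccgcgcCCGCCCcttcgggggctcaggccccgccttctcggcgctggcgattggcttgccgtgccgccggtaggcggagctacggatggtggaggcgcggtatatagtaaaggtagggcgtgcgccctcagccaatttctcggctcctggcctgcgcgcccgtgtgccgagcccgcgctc
Aqp1, chr6:55336049-55336348, plus strand: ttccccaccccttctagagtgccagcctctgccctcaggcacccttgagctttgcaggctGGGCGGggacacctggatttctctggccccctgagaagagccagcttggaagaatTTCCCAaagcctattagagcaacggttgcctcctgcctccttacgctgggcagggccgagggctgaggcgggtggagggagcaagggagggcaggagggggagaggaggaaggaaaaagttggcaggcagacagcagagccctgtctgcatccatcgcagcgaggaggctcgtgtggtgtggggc
The Kcnn4 promoter held 1 GC box, the Atp1b1 promoter 2, and the Aqp1 promoter 1 GC box and 1 RBPJ core, which begins at position −135 relative to the start site. Among all 32851 RefSeq promoters, 25.6% held the RBPJ core and 35.7% the GC box. The ONECUT core, searched as ATTGAT or ATTGAC on both strands, was in none of the 3 windows and in 13.1% of all promoters. RefSeq promoters were used for 6 of the 9 genes; the RBPJ core also occurred in that of Ano1 and in 1 of those of Slc4a2. The Atp1b1 promoter was 71.0% G or C with 31 CpG dinucleotides, against 59.7% and 6 in Kcnn4 and 62.7% and 8 in Aqp1, where the median promoter had 52.7% and 7. These matches describe letters in a window and say nothing of binding.

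Between HpC and pC, 3 of the 9 genes were lower in HpC (Car2, Kcnn4, Atp1b1), 2 were higher (Slc12a2, Aqp1) and 4 did not pass the test (Sctr, Cftr, Ano1, Slc4a2). The test was limma on log2(scaled TPM + 1) with Benjamini-Hochberg adjustment over all 14765 genes at 5%, under which 4.54% of all genes were called, 1.99% higher and 2.55% lower in HpC. The median difference over the 9 genes was −0.59 on the log2 scale, against −0.01 over all genes tested. With TPM as deposited, where the median of all genes moved to −0.36, 26.1% of calls were higher in HpC against 43.8% after scaling. The ranges of HpC and pC did not overlap for 7 of the 9 genes, against 16.5% of all genes tested. All fold changes from limma are on that log2 scale and understate the changes of low genes.

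**Figure D1:**
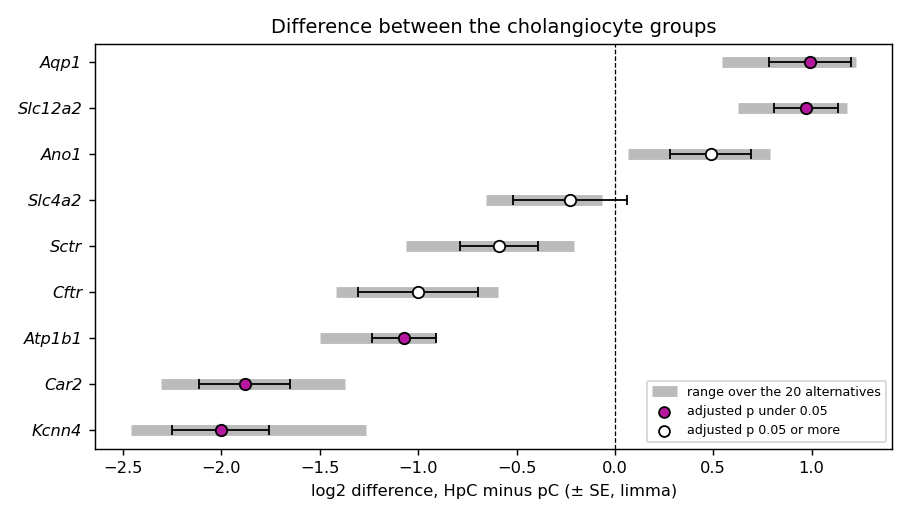
Difference between HpC and pC in log2(scaled TPM + 1) for each of the 9 genes, with the limma estimate, its SE as the thin bar and the range over the 20 alternatives as the thick grey bar; filled points passed the test. Car2, Kcnn4 and Atp1b1 lie to the left of 0 and Slc12a2 and Aqp1 to the right, and only these 5 passed the test.

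Sctr encodes the secretin receptor (chr1:120006894-120063536, mm10, plus strand). It was low in all cholangiocyte libraries, with scaled TPM of 0.768, 0.359, 1.0 and 0.932 for HpC1 to HpC4 in turn and of 1.62, 2.20 and 1.17 for pC1 to pC3, and it was listed at 0 in every H library. Each pC library was above each HpC library, by a ratio of means of 2.17. The log2 difference of −0.59 ± 0.20 (SE; 95% interval −1.03 to −0.15) did not pass the test (limma adjusted p = 0.142).

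Cftr encodes the cyclic AMP-gated chloride channel (chr6:18170687-18322768, plus strand). HpC1 to HpC4 held 12.8, 6.51, 13.9 and 11.3 scaled TPM, pC1 to pC3 held 19.3, 15.8 and 37.1, and H1 to H3 held 0.0197, 0.0946 and 0.056. All pC values lay above all HpC values, with pC3 far above pC1 and pC2, and H was near 0. The HpC mean was 11.1 ± 3.26 and the pC mean 24.1 ± 11.4 (SD), a ratio of 2.16 in favour of pC, and the log2 difference of −1.0 ± 0.31 (95% interval −1.68 to −0.32) did not pass the test (limma adjusted p = 0.107). Without pC3, the pC library with pancreatic transcripts, the difference was −0.65 (limma adjusted p = 0.281). The full-length transcript of 27 exons and 6303 bases carried most of the gene's TPM, at 8.95 ± 2.50 in HpC and 17.9 ± 5.23 in pC.

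Ano1 encodes the calcium-gated chloride channel anoctamin-1 (chr7:144588549-144751974, minus strand). HpC libraries read 73.4, 111, 128 and 132 scaled TPM, pC libraries 87.3, 67.2 and 77.9, and H libraries 0.326, 0.374 and 0.321. HpC and pC overlapped through HpC1, the only HpC library inside the pC range, while HpC2 to HpC4 lay above all pC libraries. The log2 difference of 0.49 ± 0.20 (95% interval 0.03 to 0.94) did not pass the test (limma adjusted p = 0.249). It passed in 3 of 20 alternatives, among them without HpC1 (0.67, limma adjusted p = 0.0346), the library rich in pancreatic transcripts. With TPM as deposited it was only 0.06 (limma adjusted p = 0.934), where the median of all genes was at −0.36 and the gene stood 0.43 above it. Of the 2 channel genes, Ano1 thus had its higher mean in HpC and Cftr in pC, and neither difference passed. The full-length transcript of Ano1 with 26 exons was at 26.2 ± 6.74 in HpC and 19.8 ± 2.12 in pC, and a shorter coding model of 4 exons and 834 bases held 33.9 ± 8.61 and 28.02 ± 3.39.

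Slc4a2 encodes the chloride-bicarbonate exchanger AE2 (chr5:24423837-24440950, plus strand). It had the smallest estimated difference between HpC and pC, with 123.6, 125, 87.1 and 70.0 scaled TPM in the HpC libraries and 137, 116 and 97.8 in the pC libraries. H held 36.6, 48.7 and 79.8, so that hepatocytes were within the range of HpC at H3. The log2 difference of −0.23 ± 0.29 (95% interval −0.88 to 0.42) did not pass the test (limma adjusted p = 0.728), and the interval still allows a change of either sign. Most of this signal did not come from coding transcripts, which held 18.7% to 32.9% of the gene's TPM in HpC and 25.2% to 30.4% in pC. A noncoding model of 234 bases and 2 exons led in every HpC and pC library, with a scaled TPM of 40.7 ± 20.4 for HpC and 48.4 ± 19.4 for pC. In H its mean was 14.4 ± 18.8, and it led only in H3, at 36.1 against 4.63 in H1 and 2.48 in H2. The full-length coding transcript of 22 exons and 3924 bases stood at 6.34, 8.58, 9.17 and 9.18 in HpC, at 12.2, 10.1 and 12.2 in pC and at 7.25, 7.16 and 8.40 in H. On that transcript every pC library lay above every HpC library, and HpC overlapped H. Over coding transcripts alone, HpC averaged 26.3 ± 5.85, pC 32.2 ± 2.42 and H 14.1 ± 2.09 scaled TPM, and the difference between HpC and pC was −0.31 ± 0.17 (limma adjusted p = 0.357).

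**Figure D2:**
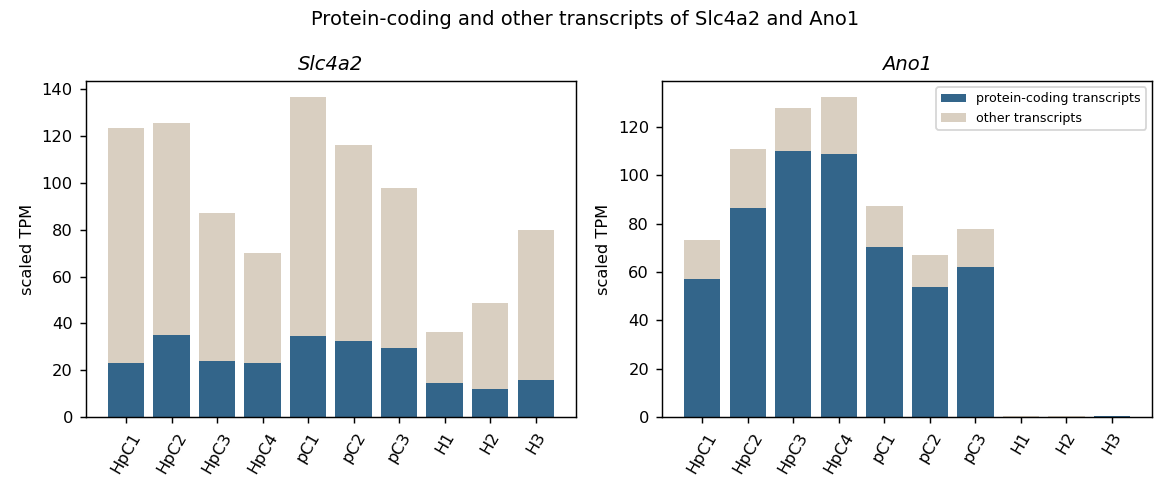
Scaled TPM of Slc4a2 and Ano1 in each of the 10 libraries as bars from 0, split into protein-coding transcripts (dark) and other transcripts (light). Coding transcripts made up 18.7% to 39.5% of the Slc4a2 bars and 77.9% to 86.2% of the Ano1 bars in HpC and pC; the Ano1 bars of H are near 0.

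Slc12a2 encodes the sodium-potassium-chloride cotransporter that loads chloride into the cell (chr18:57878678-57946821, plus strand). The HpC libraries showed 9.59, 10.4, 13.1 and 8.94 scaled TPM, the pC libraries 5.06, 4.11 and 5.34, and the H libraries 2.59, 3.08 and 2.42. The 3 groups did not overlap, and HpC was the highest. HpC averaged 10.5 ± 1.81 and pC 4.84 ± 0.65 (SD), a ratio of 2.17, and the log2 difference was 0.97 ± 0.16 (limma adjusted p = 0.00879). Stellate and fibroblast markers summed to 28.04 to 85.4 scaled TPM over HpC and 20.5 to 30.2 over pC, with Col3a1 higher among 7 tested, and mesothelial markers to 33.1 to 54.6 and 24.3 to 30.9, with Wt1, Upk1b and Msln higher and Gpm6a lower; the part of these markers in the result was not tested. The Slc12a2 call was lost without pC2 (0.87, limma adjusted p = 0.0591) and with TPM as deposited (0.62, limma adjusted p = 0.305), where the median of all genes was at −0.36 and the gene stood 0.99 above it.

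Car2 encodes the cytosolic carbonic anhydrase (chr3:14886273-14900770, plus strand). HpC had 4.41, 4.14, 8.39 and 3.81 scaled TPM, pC had 21.5, 20.2 and 21.2, and H had 1.49, 2.27 and 1.65. The pC libraries were tightly grouped, HpC lay between pC and H without touching either, and HpC3 was the highest of HpC. The pC mean was 4.04 times the HpC mean, and the log2 difference was −1.88 ± 0.23 (limma adjusted p = 0.00196). It was called in each of the 20 alternative fits, with a highest adjusted p of 0.0185.

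Kcnn4 encodes a calcium-gated potassium channel of intermediate conductance (chr7:24370263-24386690, plus strand), which in epithelia hyperpolarises the membrane when calcium rises. HpC held 3.60, 2.04, 3.68 and 1.5 scaled TPM, pC held 15.4, 14.8 and 10.4, and all 3 H libraries were listed at 0. The lowest pC library was well above the highest HpC library. The pC mean of 13.5 ± 2.75 was 5.0 times the HpC mean of 2.70 ± 1.10 (SD), the largest ratio among the 9 genes. The log2 difference was −2.0 ± 0.25 (limma adjusted p = 0.00196), and it was called in each alternative, with a highest adjusted p of 0.0161.

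Atp1b1 encodes the beta subunit of the sodium pump, which brings the catalytic subunit to the membrane (chr1:164437109-164458355, minus strand). Scaled TPM was 101, 86.7, 106 and 118 for HpC, 205, 263 and 188 for pC, and 19.4, 21.04 and 22.5 for H. The groups formed 3 separate levels, with HpC between pC and H. The ratio of the pC mean to the HpC mean was 2.12, and the log2 difference was −1.07 ± 0.16 (limma adjusted p = 0.00506), with a highest adjusted p of 0.0311 over the alternatives. Car2, Kcnn4 and Atp1b1 were lower in HpC, as was the summed level of the cholangiocyte markers, which Spp1 carries while other markers of that list had higher means in HpC. The part of those markers in the result was not tested.

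Aqp1 encodes a water channel of the bile duct epithelium, which is also abundant in red cells and in endothelium (chr6:55336432-55348555, plus strand). HpC libraries carried 7.82, 4.78, 6.96 and 3.92 scaled TPM, pC libraries 2.58, 2.27 and 2.24, and H libraries 0.236, 0.205 and 0.235. Every HpC library was above every pC library, and HpC1 and HpC3 were the highest. The HpC mean was 2.48 times the pC mean, and the log2 difference was 0.99 ± 0.21 (limma adjusted p = 0.0247). The 7 red cell genes summed to 377, 97.8, 253 and 36.6 for HpC1 to HpC4 in turn and to 58.7 to 127 for pC, and the 8 endothelial markers to 18.2, 8.14, 17.9 and 9.64 against 9.01 to 14.9; both sums were therefore highest in the 2 libraries with most Aqp1. In HpC2 and HpC4 both sums were below the highest pC sums. Stellate and fibroblast markers summed to 85.4, 28.04, 52.0 and 41.0 for HpC1 to HpC4 in turn, again highest in HpC1 and HpC3, and the mesothelial markers differed as given for Slc12a2. The part of these markers in the result was not tested. The Aqp1 call was lost in 8 of 20 alternatives, among them leaving out HpC3 (0.90, limma adjusted p = 0.0735), pC1 (1.02, 0.0772), pC2 (0.96, 0.108) or pC3 (0.96, 0.0801), and its direction was kept in all of them.

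**Figure D3:**
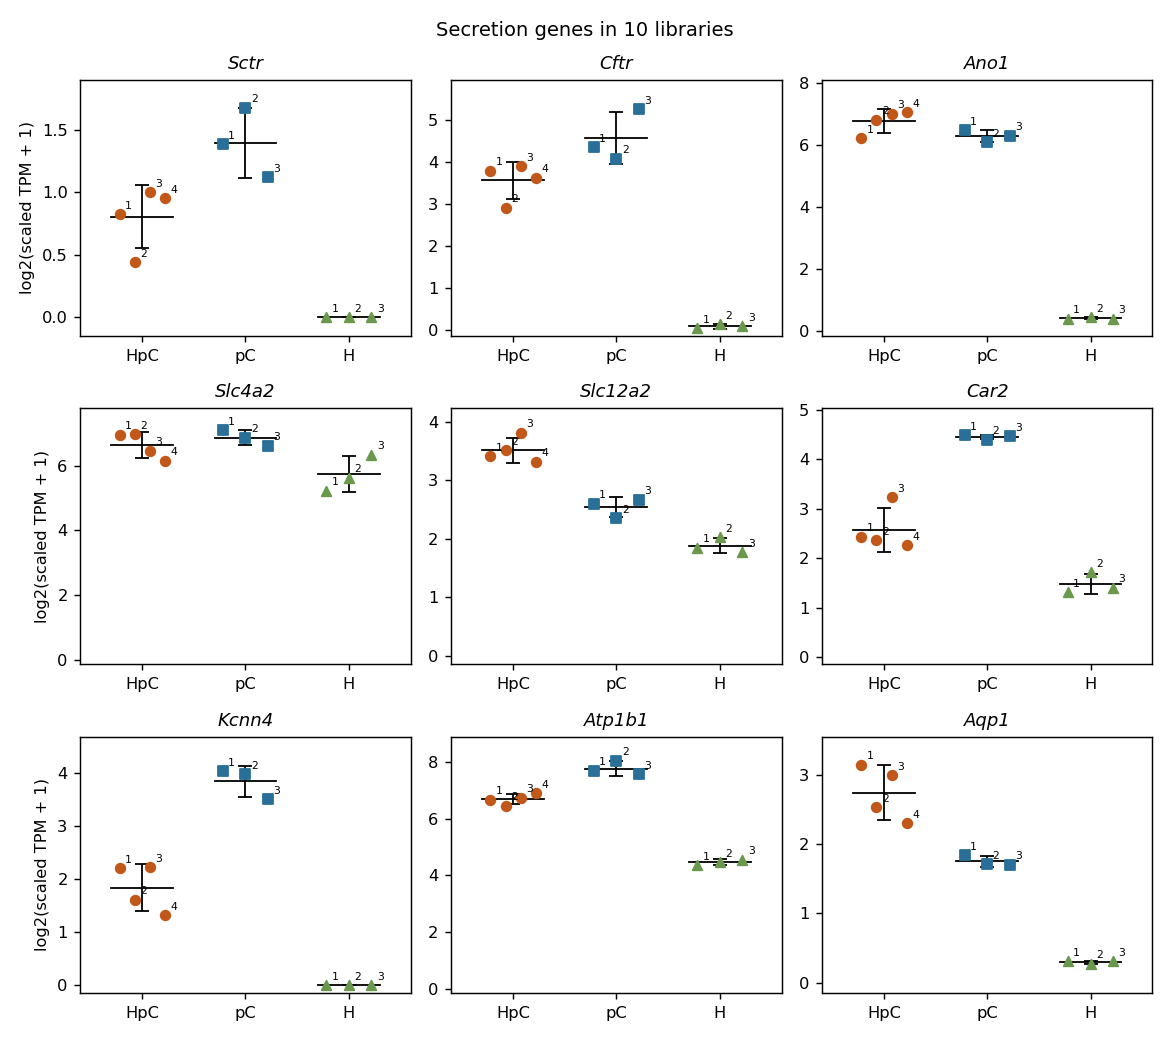
Scaled TPM of each of the 9 genes in the 10 libraries, as log2(scaled TPM + 1); points are libraries numbered by replicate, lines are group means and error bars are the SD of these values. HpC lies between pC and H for Car2, Kcnn4 and Atp1b1 and above both for Slc12a2 and Aqp1.

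Only Slc4a2, Slc12a2 and Atp1b1 reached 1 TPM in all 3 H libraries. The other 6 genes entered the tested set through the cholangiocyte libraries, where they were higher (Car2 also reached 1.13 TPM in H2). The filter thus favoured a difference from H for these 6, and the counts here are only a description. Against hepatocytes, all 9 genes were higher in HpC and all 9 in pC, where 59.9% and 59.6% of all genes tested were called in either direction, 30.7% and 31.1% higher and 29.2% and 28.6% lower. The ranges did not overlap with H for 8 of the 9 genes in HpC, all but Slc4a2, and for all 9 in pC, against 60.5% and 70.3% of all genes tested. These 2 comparisons share the H libraries, and each shares a group with that of HpC and pC. Scaling moved the balance of calls against H, with 51.2% higher in HpC after scaling, 83.3% with TPM as deposited and 63.2% by median of ratios; for pC the shares were 52.1%, 88.2% and 62.8%. All 9 genes were called higher than H under each of these 3 scalings. With TPM as deposited the median of all genes moved to 0.87 in HpC and 1.20 in pC, and relative to it all 9 stayed above 0, Sctr in HpC by only 0.06.

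On the log2(scaled TPM + 1) scale Ano1 had the largest difference from H, 6.35 ± 0.20 in HpC and 5.86 ± 0.22 in pC. Cftr followed in HpC at 3.47 ± 0.31 and stood at 4.48 ± 0.33 in pC. By ratio of means Cftr was the larger of these 2 in pC, 424 against 228 for Ano1. These ratios divide by H values near 0, 0.0197 to 0.0946 scaled TPM for Cftr and 0.321 to 0.374 for Ano1, so that order is uncertain. Aqp1 was 2.45 ± 0.21 higher in HpC and 1.46 ± 0.22 in pC, and Slc12a2 1.63 ± 0.16 and 0.66 ± 0.18. The opposite order held for Car2, at 1.10 ± 0.23 in HpC and 2.98 ± 0.25 in pC, and for Atp1b1, at 2.23 ± 0.16 and 3.31 ± 0.17. No p is given for Ano1, Cftr, Aqp1 or Car2, which entered the tested set through the cholangiocyte libraries. Sctr and Kcnn4 were listed at 0 in every H library, so no fold or p is given for them.

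Against H, Slc4a2 was 0.90 ± 0.29 higher in HpC (limma adjusted p = 0.0207) and 1.13 ± 0.31 in pC (limma adjusted p = 0.00956). The call in HpC was lost without H1 (0.64, limma adjusted p = 0.0975), without H2 (0.84, limma adjusted p = 0.0670) and when both HpC1 and HpC2 were left out (0.70, limma adjusted p = 0.0839). Over coding transcripts alone it was 0.86 ± 0.17 (limma adjusted p = 0.00135).

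The order of levels, per transcript length, differed between the groups. In HpC, Ano1, Atp1b1 and Slc4a2 (means 111, 103 and 102 scaled TPM) overlapped at the top, followed by Cftr and Slc12a2 (11.1 and 10.5, overlapping), Aqp1 and Car2 (5.87 and 5.19, overlapping), Kcnn4 (2.70) and Sctr (0.766). In pC, Atp1b1 led at 219, above Slc4a2 at 117 and Ano1 at 77.5, and Cftr and Car2 overlapped at 24.1 and 20.96. Kcnn4 came next in pC at 13.5, ahead of Slc12a2 at 4.84, Aqp1 at 2.36 and Sctr at 1.66. In H the highest were Slc4a2 at 55.0 and Atp1b1 at 20.997, and Cftr, Ano1 and Aqp1 stayed below 1. Within HpC no library was highest throughout: HpC3 was highest for Sctr, Cftr, Slc12a2, Car2 and Kcnn4, and HpC4 was lowest for Slc4a2, Slc12a2, Car2, Kcnn4 and Aqp1 but highest for Ano1 and Atp1b1.

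A wider list of 110 genes of the same pathway, without the 9, was drawn up by role, also with earlier results of these data known. Of these genes, 74 were tested. Between HpC and pC, 3 were higher in HpC, 8 were lower and 63 did not pass, so that 14.9% were called against 4.54% of all genes, and the median difference was −0.02 against −0.01. Kcnj15, among the 3 higher, reached the tested set only through HpC. Against H, 35 were higher and 19 lower in HpC, and 31 higher and 17 lower in pC, with medians of 0.67 and 0.39 against 0.08 and 0.11 over all genes tested; 72.97% and 64.9% were called, against 59.9% and 59.6% of all genes, so the share in pC was near that of all genes. Where the mean level was 3 or more on the log2 scale, the largest rises over H in HpC were in Fxyd3, a regulator of the sodium pump (5.08 ± 0.60), Ano6, a scramblase and ion channel (4.36 ± 0.19), and the anion exchanger Slc4a3 (4.29 ± 0.27, but 2.57 over coding transcripts alone), and in pC they were in Fxyd3 (5.55 ± 0.65), Kcnk1 (5.30 ± 0.16) and Wnk2 (5.05 ± 0.18). Without HpC2 the rise in HpC was 4.51 for Fxyd3 and 4.50 for Ano6. No H library held more than 0.872 scaled TPM of any of these genes. They entered the tested set through the cholangiocyte libraries, which favoured a difference from H. The counts of this list against H are therefore only a description. Under the same cutoff the largest falls were in the same 3 genes for both. They were the carbonic anhydrase Car3 (−6.34 ± 0.66 in HpC and −6.52 ± 0.70 in pC), the pump regulator Fxyd1 (−2.86 ± 0.36 and −2.42 ± 0.38) and the kinase subunit Prkar2a (−1.89 ± 0.39 and −1.93 ± 0.41), all by limma with adjusted p of 0.00246 or less. With TPM as deposited Fxyd1 was at −1.74 and −0.87 and Prkar2a was not called (limma adjusted p = 0.0816 and 0.325). The cutoff, a mean over all 10 libraries, left out genes that were low outside H and fell further. Among them, the H mean was 47.9 and 138 times the HpC and pC means for Aqp8, 27.2 and 149 times for Aqp9 and 55.7 and 87.5 times for Car5a. For Fxyd1 it was 6.57 and 5.39 times. None of the 7 genes tested under chloride channels (0 of 7) or under exchangers (0 of 7) in the wider list passed between HpC and pC by limma. Beside the 4.54% of all genes called, counts of 0 in lists this short do not set these roles apart. Clcn3 and Clcn5 of the first role exchange chloride for protons. The second also holds the sodium-bicarbonate cotransporters Slc4a4 and Slc4a7 and the scaffold genes Slc9a3r1 and Slc9a3r2. Slc9a3r1 was just short of passing (−0.67 ± 0.17, limma adjusted p = 0.0526), and its HpC and pC ranges did not overlap. Of the 9 potassium channels tested, 3 were lower and 1 was higher, with a median of −0.75; no test between roles was made.

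**Figure D4:**
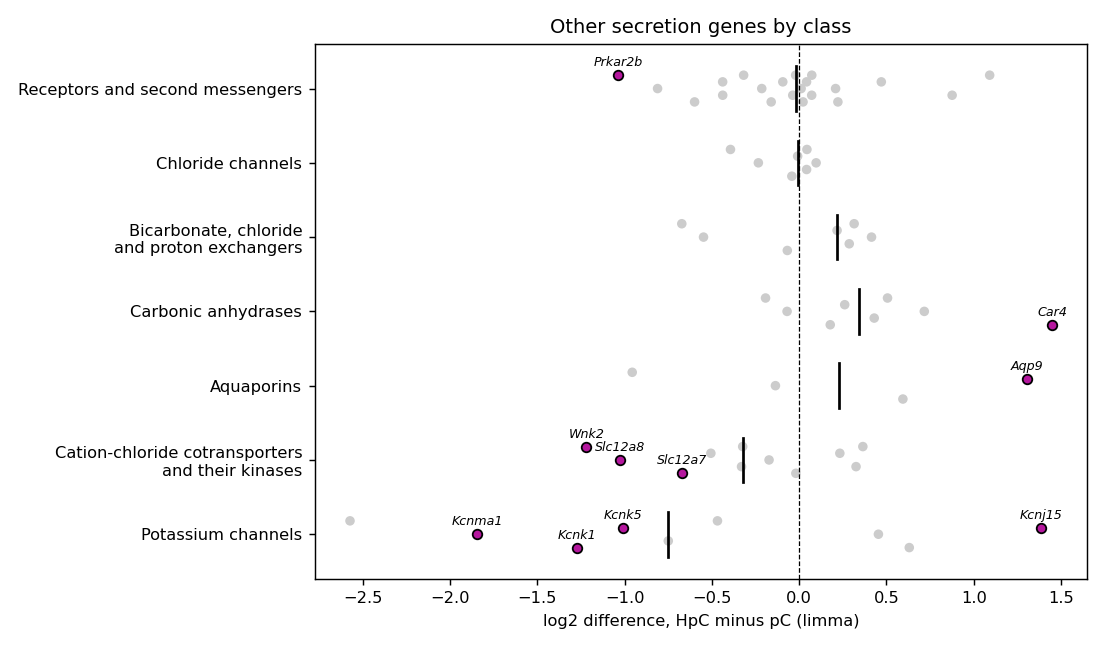
Difference between HpC and pC in log2(scaled TPM + 1) for the tested genes of the wider list other than those of the sodium pump, grouped by role, with named filled points past the test, grey points not past it and short vertical lines at the median of each role. Of the potassium channels 3 lie past the test below 0 and 1 above it, Kcnj15, which reached the tested set only through HpC. No gene grouped under chloride channels or exchangers passed the test, where 4.54% of all genes tested did.

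Among the potassium channels, Kcnma1, the large-conductance calcium-gated channel, had 4.69, 2.74, 5.36 and 5.37 scaled TPM among HpC and 22.3, 23.4 and 12.0 among pC. It was lower in HpC by −1.85 ± 0.26 (limma adjusted p = 0.00371), as were Kcnk1 by −1.27 ± 0.15 (0.00149) and Kcnk5 by −1.01 ± 0.17 (0.00967), both background channels of the tandem-pore family. Kcnk5 was lost without pC1 (−0.90, limma adjusted p = 0.0528). The inward rectifier Kcnj15 was at 2.13 ± 1.29 against 0.130 ± 0.141. It reached the tested set only through HpC, where it was high, so no p is given and its call is only a description. That call was lost in 6 of 19 alternatives. Kcnn4 was also lower in HpC, but 5 of the 9 potassium channels tested in the wider list did not pass. Over all genes tested, 2.55% were called lower. Both lists were chosen with earlier results known, and a shared change of potassium channels was not tested.

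Among the sodium pump genes of the wider list, HpC2 stood apart in a pair of genes picked after their values were seen. In HpC2 the regulator Fxyd3 stood at 174 and the beta subunit Atp1b3 at 58.5, against 29.3 to 31.6 and 9.61 to 10.5 in the other HpC libraries.

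Of the cation-chloride cotransporters and the kinases that regulate them, Wnk2 was lower in HpC, at 14.98 ± 2.26 against 36.2 ± 5.47 scaled TPM (−1.22 ± 0.17, limma adjusted p = 0.00346). The potassium-chloride cotransporter Slc12a7 (−0.67 ± 0.15, limma adjusted p = 0.0326) and Slc12a8 (−1.03 ± 0.25, limma adjusted p = 0.0480) also passed, but were lost in 12 and 15 of 20 alternatives. Among carbonic anhydrases the membrane-anchored Car4 was higher in HpC, at 5.35 ± 2.30 against 1.23 ± 0.50 (1.45 ± 0.32, limma adjusted p = 0.0299), opposite to Car2, and was lost in 11 of 20. Prkar2b, a regulatory subunit of the cyclic AMP-dependent kinase, was lower at 1.16 ± 0.41 against 3.42 ± 0.69 (−1.04 ± 0.19, limma adjusted p = 0.0143). Its call was lost in 3 of 20 alternatives, with limma adjusted p up to 0.0774. Of the 21 tested genes of receptors and second messengers only Prkar2b passed, a share of 4.76%, near the 4.54% of all genes.

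Among the other aquaporins, Aqp9, the aquaglyceroporin of hepatocytes, was higher in HpC, at 2.71 ± 0.86 against 0.496 ± 0.334 scaled TPM (1.30 ± 0.22, limma adjusted p = 0.00801), and H held 73.7 ± 4.87. The hepatocyte markers summed to more in each HpC library than in any pC library, but not without Alb or with TPM as deposited (3433 to 8156 against 1825 to 4007), and their part in the result was not tested. Aqp3 and Aqp12, also picked after their values were seen, peaked in 1 library each, at 158 in HpC2 and 58.2 in HpC1, the libraries with squamous and pancreatic transcripts, and did not enter the test.

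The genes with the most similar profile were sought for each of the 9 by the root mean square difference of centred log2(scaled TPM + 1) over the 10 libraries, among 12922 genes. Sctr was nearest to Sbspon (0.137), Bicral (0.157) and Lancl3 (0.159), Cftr to Mtss1l (0.278), Slc25a36 (0.325) and Chmp4c (0.340), and Ano1 to Plet1 (0.167), Krt7 (0.212) and Lama5 (0.228). Slc4a2 was nearest to Nenf (0.201), Zmynd8 (0.216) and Phtf1 (0.243), and Slc12a2 to Itpripl2 (0.175), Pcolce (0.178) and Foxo6 (0.192). For Car2 the nearest were Anxa9 (0.303), H2-M3 (0.350) and Arhgef38 (0.365), and for Kcnn4 Ankrd29 (0.244), Etv5 (0.354) and Qpct (0.372). Atp1b1 was nearest to App (0.168), Tmem173 (0.175) and Cdk19 (0.190), and Aqp1 to Spon1 (0.223), Aebp1 (0.234) and Cd55 (0.237). Car2 ranked 16 among these genes in likeness to Kcnn4, and Kcnn4 ranked 24 in likeness to Car2. No other pair of the 9 ranked as near.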

How the data were processed

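RNA-seq was done on sorted mouse liver cells in 10 libraries (HpC n = 4, pC n = 3, H n = 3), with low-input kits and single-end reads, per the labels' protocols. The authors deposited 1 table per library with TPM values for 85276 transcripts with Ensembl identifiers. Kallisto, DESeq and the mm10 build are named in the submitters' processing notes, without versions or roles. The deposited TPM holds no sequencing depth, so no count test, counting interval or detection limit could be given. Transcripts were joined to GENCODE M21 genes by identifier (81927 matched and 3349 did not, the latter with 4.22% to 9.06% of TPM) and summed per gene. Short reads can be shared between transcripts of a gene, so values of single transcripts are estimates.

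Genes past 1 TPM in 3 libraries (14765) were rescaled by a trimmed mean of log ratios (30% and 5% trimmed) and tested on log2(scaled TPM + 1) with limma 3.58.1 in R 4.3.3, in 1 fit of the 10 libraries with a trended prior variance and Benjamini-Hochberg adjustment at 5%. Intervals cover 95%. Tables and figures used Python 3.11.15, pandas 2.3.3 and matplotlib 3.10.9, and the fit was tested on simulated data. Promoters and their motif letters came from RefSeq. All 9 genes are named; of the wider list, the genes called between HpC and pC and the 3 largest differences in each direction against H (mean log2 level of at least 3) are named; and for each of the 9, the 3 protein-coding genes nearest in profile. Some items that these rules would name are not reported here. The 9 genes and the lists were chosen with earlier results of these data known. Alternatives were other scalings, pseudocounts, filters, weights and transcript sets, a fit of only the groups compared, a replicate block, and leaving out libraries.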

Additional observations from a re-analysis of the deposited data

Results flagged for a closer look

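Among the 9 genes, 1 library stood apart from its group: Car2 in HpC3 was at 8.39 scaled TPM while HpC1, HpC2 and HpC4 lay between 3.81 and 4.41. The gap to the nearest of the others was 0.869 of the HpC range, above Dixon's 95% critical value for 4 samples. Such a gap arises by chance in about 1 in 20 groups, and 9 genes were examined in HpC; groups of 3 were not examined. HpC3 remained below all pC libraries, and without it Car2 was lower in HpC by limma at an adjusted p of 0.000555.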

How the results depend on the processing

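Of 27 results (9 genes in 3 comparisons), 23 kept their direction and their side of the threshold in every alternative, and none reversed. Those that changed were Ano1, Slc12a2 and Aqp1 between HpC and pC, and Slc4a2 between HpC and H. Most of the 27 are comparisons with H. There the filter favoured a difference for the 6 genes that entered the tested set through the cholangiocyte libraries. Their stability is therefore no evidence of robustness. Between HpC and pC the Aqp1 call was lost in 8 of 20 alternatives. Of the 9 genes, 5 were called between HpC and pC, against 3 with TPM as deposited, and from 3 (without pC2) to 6 (without HpC1) when 1 library was left out. Over all genes 671 were called, against 393 with only the 2 groups compared and 1797 with array weights, and from 271 (without pC2) to 794 (without HpC4); without pC1, pC3 or HpC3 there were 330, 443 and 415. Of the wider list 11 were called, against 5 with only the 2 groups compared, 18 with array weights and 6 when both HpC1 and HpC2 were left out, and from 4 (without pC1) to 11 (without HpC4), with 5 without pC2 and 7 without pC3.

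Replicate numbers are shared between groups, but same-numbered libraries deviated together only at correlations from −0.0458 to 0.0839, so the numbers were not taken to pair samples. With a replicate block 5 of the 9 genes and 573 genes in all were called between HpC and pC. The number of libraries, the unknown depth and the low levels of Sctr, Kcnn4 and Aqp1 limit precision.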
